A study of Mus musculus with 24 samples.

Results

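Cell cycle and proliferation genes were described in mouse lung RNA across 6 groups of 4 Affymetrix arrays. The set lists 42 genes that drive or mark cell division. A gene was represented by the probe set that names it alone and has the highest mean log2 signal. By this rule 41 of the 42 genes were found, with 84 probe sets, among 12393 genes named alone by a probe set of the array. Ccnb1, the B-type cyclin, was not analysed here because no probe set names it alone.

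Mice breathed filtered air or diesel exhaust (DE) for 4 hours a day on 5 days. DE 500 stands for exhaust at 500 ug/m3, and DE 2000 for exhaust at 2000 ug/m3. Each exposure was combined with saline or with 100 ug of ovalbumin (OVA) on 3 days, so that the groups were air with saline, DE 500 with saline, DE 2000 with saline, air with OVA, DE 500 with OVA and DE 2000 with OVA. The labels do not give strain, sex, age or route, and no group carries a stated genetic change. They name a replicate number but not whether replicates were separate animals, so the p-values measure only the spread between these arrays. The number of arrays, 4 a group, limits the precision of every comparison below.

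The cell cycle runs through a fixed order of steps. D-type cyclins with their kinase Cdk4 release E2F factors, which switch on genes for DNA replication. Mitotic cyclins with Cdk1 then drive division, and the anaphase-promoting complex ends it. Most cells of an adult lung are at rest, and dividing cells are a small share of the tissue. In whole-tissue RNA, fewer cells of a type and less RNA per cell cannot be told apart.

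Promoter sequences are shown for the members that differed between OVA and saline and have an entry in RefSeq's promoter table (GRCm38.p6), because cell cycle genes are known for short shared motifs next to the start site. The table matched 32 of the 41 members. Ccnd1, Ccnd2, Ccna2 and Stmn1 have no entry. Mcm7 has a second annotated start, with 1 CCAAT match in the 120 bases upstream (chr5:138171267-138171386), that is not printed. Each line gives the 120 bases upstream of the annotated start, 5′ to 3′ on the gene's own strand. Capitals mark every match on either strand to CCAAT, the box bound by NF-Y, to TTTGAA or TTTAAA, the cell cycle homology region (CHR), and to TTTCGCGC, TTTGGCGC or TTTCCCGC, forms of the E2F site.
Pcna, chr2:132253181-132253300, minus strand: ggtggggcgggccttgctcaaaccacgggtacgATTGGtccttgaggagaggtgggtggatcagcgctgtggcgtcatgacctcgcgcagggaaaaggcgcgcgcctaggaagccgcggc
Mcm7, chr5:138171884-138172003, minus strand: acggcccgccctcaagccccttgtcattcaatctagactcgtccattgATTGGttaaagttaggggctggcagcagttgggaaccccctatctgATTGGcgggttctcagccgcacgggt
Cdc20, chr4:118437344-118437463, minus strand: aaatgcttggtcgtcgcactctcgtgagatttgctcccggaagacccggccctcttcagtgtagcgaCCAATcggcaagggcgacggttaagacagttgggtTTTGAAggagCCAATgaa
Cenpa, chr5:30666766-30666885, plus strand: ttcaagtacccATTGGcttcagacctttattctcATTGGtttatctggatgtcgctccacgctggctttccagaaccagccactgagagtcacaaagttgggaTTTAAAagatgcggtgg
Cdc20 and Cenpa, both used in mitosis, carry a CHR letter match close to the start, TTTGAA in Cdc20 and TTTAAA in Cenpa. Pcna and Mcm7, both used at the replication fork, show CCAAT matches and no CHR match in the stretch printed. Over the 250 bases upstream, a CCAAT match was present in 24 of the 32 matched members and in 33.8% of all 32851 promoters. A CHR match was present in 15 members and in 25.2% of all promoters. Mcm2, Mcm5, Ccne1 and Tk1, genes of S phase or its entry, had a CHR match. Aurka, Bub1, Bub1b and Hmmr, used in mitosis, had a CCAAT match and no CHR match. The CHR match thus did not divide the members into genes of replication and of mitosis. An E2F match was present in 6 members (Mcm5, Mcm6, Mcm7, Cdc6, Cdk1 and Cdk2) and in 1.53% of all promoters. Members were counted per gene, by a match at any annotated start of the gene, and the share of all promoters was counted per start. These figures are therefore not like for like. A match is a string of letters and not a measured binding site.

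Many members gave little signal in these lungs. A mean log2 signal under 7.11, the 40th percentile of all probe sets and a signal of 138, was taken as near background. By this limit 22 of the 41 members lay near background. Taking instead the 90th percentile of 20 genes specific to testis, eye, pituitary and other tissues (log2 7.48) put 26 members there. Prc1 lay just under the first limit at 7.10, and Aurka at 7.12 lay just over it. The members near background were Ccne1, Ccne2 and E2f1 among the S-phase entry genes, Cdc6 and Mcm6 among the licensing genes, Tyms and Tk1 among the nucleotide enzymes, and 15 of the 21 genes of mitosis: Ccnb2, Cdk1, Cdc25c, Plk1, Aurkb, Bub1, Bub1b, Ube2c, Birc5, Mki67, Cenpa, Kif11, Nusap1, Prc1 and Hmmr. Their values scattered more between arrays of a group, with a median within-group SD of 0.64 on the log2 scale against 0.29 for the 19 other members. The standard error (SE) of a difference between groups of 4 was 0.46 at the median near background and 0.22 above it.

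The OVA and saline arrays also differed in the evenness of signal along transcripts, which bears on every OVA comparison. Gapdh and actin have control probe sets at both ends of their transcripts, and the log2 signal at the 3′ end minus that at the 5′ end, averaged over both genes (the 3′/5′ ratio), was 1.84 ± 1.28 (SD, n = 12 arrays) in saline and 0.21 ± 0.58 in OVA. The control for B1, a short repeat in many transcripts, was 12.98 ± 0.53 in saline and 11.55 ± 0.46 in OVA on the log2 scale. DE 500 saline replicates 1 and 4 had 3′/5′ ratios of 4.38 and 3.77, against 0.33 and 0.10 in replicates 2 and 3. DE 2000 OVA replicate 4 had 2.02, against -0.13 to 0.09 in its group. These 3 arrays stand apart, and calls that change without them are named. Leaving them out does not even out the ratio between the arms. In air it was 0.98 to 2.90 with saline and -0.03 to 0.20 with OVA. At DE 2000 it was 1.30 to 2.04 with saline, against -0.13 to 0.09 in the OVA arrays left. A call that holds or appears without the 3 arrays therefore cannot tell OVA and the ratio apart. Surfactant and other epithelial markers summed to 83740 to 136020 signal units on every array, as in lung. Pairs of arrays correlated at 0.88 to 0.96.

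Between OVA and saline, averaged over the 3 exposures, 8 of 41 members (19.5%) were called, and 31.1% of all 22626 probe sets were called (15.9% higher and 15.2% lower in OVA). A call is an adjusted p under 0.05 in limma. Ccnd1, Ccnd2, Mcm7, Ccna2, Cdc20, Cenpa and Stmn1 fell with OVA, and Pcna rose. The median difference over the 41 members was -0.04 on the log2 scale, against 0.00 over all probe sets. Of the 19 members above the background limit 7 were called, and of the 22 near background 1 was, Cenpa. The share of all probe sets called on each side of that limit was not taken. These 2 counts therefore cannot be read as more or fewer than among other genes of like signal. An unadjusted p under 0.05 was found for 11 members, against 40.1% of all probe sets. For each called member the 12 OVA and 12 saline values overlapped. When the 3′/5′ ratio was fitted as a covariate, Ccnd2 alone of the members stayed called, beside 8.3% of all probe sets. With the B1 signal as the covariate 0 members were called (1.98% of probe sets), and with both covariates 0 (0.544%). Without the 3 arrays that stand apart 6 members were called (27.4%).

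At single exposures fewer members were called. OVA against saline called 2 members in air, Ccnd2 lower and Pcna higher, beside 3.99% of all probe sets higher and 3.3% lower. At DE 500 it called 1, Ccnd2, beside 2.3% higher and 3.28% lower, and at DE 2000 Ccnd2 and Pcna again, beside 4.27% higher and 6.41% lower. With the 3′/5′ covariate 0 were called in air (0.685% of all probe sets), 0 at DE 500 (0.552%) and the same 2 at DE 2000 (9.13%). With B1 as the covariate the counts were 0 in air (0.0751%), 0 at DE 500 (0.128%) and 1 at DE 2000 (4.79%), where Stmn1 was higher by 0.86. With both they were 0 (0.137%), 0 (0.177%) and 0 (0.0133%). Without the 3 arrays they were 6 (18.2%), 0 (0.323%) and 5 (20.9%). The calls added in air were Mcm7 (-0.58), Cdc20 (-0.78), Cenpa (-1.38) and Stmn1 (-0.65), with the differences themselves unmoved, since none of the 3 arrays is in those groups. At DE 500 Ccnd2 was no longer called, with a difference of -0.29. At DE 2000 the added calls were E2f1 (-1.42), Mcm7 (-0.71, limma, adjusted p = 0.00146) and Stmn1 (-0.45, 0.0153). Ccnd2 and Pcna are thus the members whose call at DE 2000 held with the 3′/5′ covariate, and none held with both covariates.

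**Figure D1:**
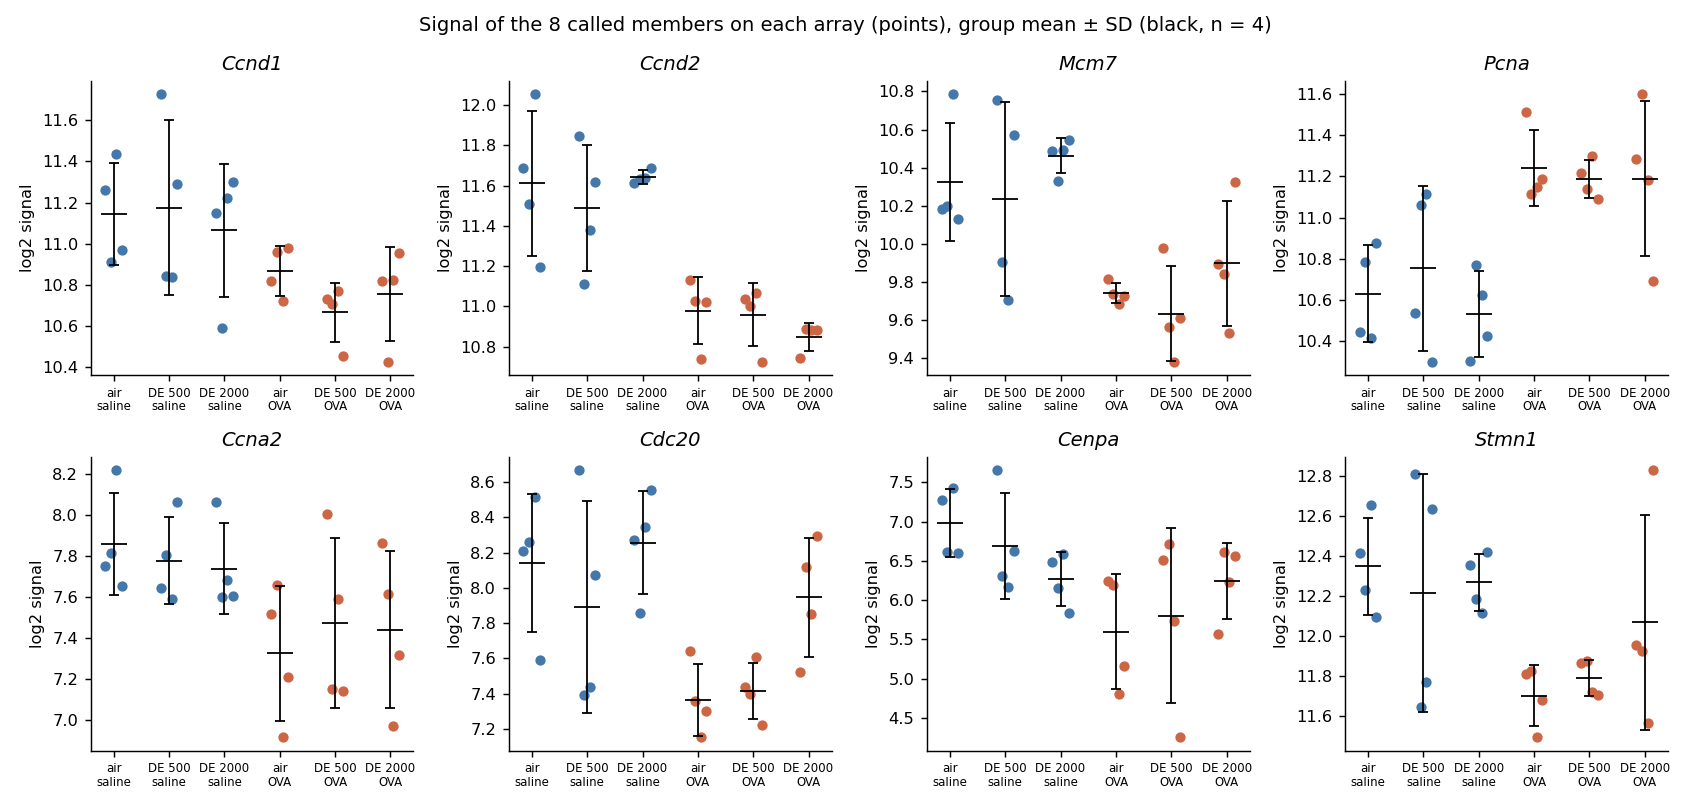
Log2 signal (vertical axis) of the 8 members called between OVA and saline, by group (horizontal axis); points are arrays, blue for saline and orange for OVA, and black bars are the group mean ± SD (n = 4). OVA arrays lie lower than most saline arrays for Ccnd2 and higher than most for Pcna, and DE 500 saline falls into separate pairs for Mcm7, Pcna and Stmn1.

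Among the D cyclins and their kinase, 2 of 4 members fell with OVA. Ccnd2, cyclin D2, which partners Cdk4 in early G1, ran from 2215 to 4249 signal units in saline (median 3158) and from 1694 to 2239 in OVA (median 1974). Of the 12 OVA arrays, 11 lay below every saline array. Ccnd2 fell by 0.65 ± 0.09 (SE) on the log2 scale (limma, adjusted p = 1.05e-05), a 1.57-fold lower signal. It was the only member called at every exposure: the difference was -0.63 in air (limma, adjusted p = 0.0180), -0.53 at DE 500 (0.0429) and -0.79 at DE 2000 (0.00171). These comparisons share no arrays and 1 estimate of the spread. They called 7.29%, 5.58% and 10.7% of all probe sets in either direction. By array, Ccnd2 read 3296, 2911, 4249 and 2343 in air with saline and 2239, 2084, 1708 and 2079 in air with OVA. At DE 500 it read 3683, 2215, 2667 and 3139 with saline and 2101, 2054, 2146 and 1694 with OVA. At DE 2000 it read 3126, 3176, 3190 and 3298 with saline and 1715, 1895, 1886 and 1890 with OVA. The groups of 4 did not overlap at any exposure, and the gap was widest at DE 2000, where the saline arrays lay close together. With the 3′/5′ covariate the averaged difference was -0.43 ± 0.09 (limma, adjusted p = 0.00367), with the B1 covariate -0.36 ± 0.15 (0.231) and with both -0.63 ± 0.16 (0.0664). DE 2000 OVA replicate 4, the OVA array with a saline-like 3′/5′ ratio, read 1890 for Ccnd2, within the range of its group. Within DE 500 saline, Ccnd2 did differ with the ratio. Replicates 1 and 4, with ratios of 4.38 and 3.77, read 3683 and 3139. Replicates 2 and 3, with ratios of 0.33 and 0.10, read 2215 and 2667, and 2215 lies inside the range of the OVA arrays. The call in air was lost without air OVA replicate 3 or air saline replicates 1 or 3, with differences of -0.61 to -0.48, and the call at DE 500 was lost on leaving out any of 15 of the 24 arrays.

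Ccnd2 has 6 further probe sets, all called in the averaged comparison. Of these 5 were lower in OVA, at -0.38, -0.47, -0.85, -1.39 and -2.91, and 1 was higher, at 2.12. The values of -2.91 and 2.12 come from probe sets near background.

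Ccnd1, cyclin D1, ran from 1539 to 3389 in saline (median 2331) and from 1375 to 2014 in OVA (median 1776). It fell by 0.36 ± 0.10 with OVA (limma, adjusted p = 0.00999). The highest reading was DE 500 saline replicate 1 (3389), the array with the highest 3′/5′ ratio. Replicate 4 of that group, also high in the ratio, read 2505. Replicates 2 and 3, low in the ratio, read 1837 and 1827, inside the range of the OVA arrays. With that ratio as a covariate the difference was -0.07 (limma, adjusted p = 0.795), and with B1 it was 0.07. Its other probe sets gave -0.29, which was called, and 0.01, which was not. Ccnd3, cyclin D3, differed by 0.19 ± 0.10 and was not called. Cdk4, the kinase of the D cyclins, had the smallest within-group SD of the members at 0.17 and differed by -0.06 ± 0.07. Of the 2 other Cdk4 probe sets, 1 was called at 0.53, opposite in sign.

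In the averaged OVA comparison none of the 4 S-phase entry genes was called, and none had an unadjusted p under 0.05 in limma. Cdk2, the kinase that works with cyclins E and A, ran from 150 to 372 in saline (median 294) and from 223 to 352 in OVA (median 286). The OVA values lay inside the saline range, and the difference was 0.04 ± 0.13. Ccne1 and Ccne2, the E cyclins, and E2f1, the transcription factor released by the D cyclin kinases, are near background. Their differences were -0.25 ± 0.36, 0.22 ± 0.24 and -0.31 ± 0.26. A second E2f1 probe set was called at -0.93. At DE 2000 alone E2f1 differed by -1.16 ± 0.45 between OVA and saline (limma, adjusted p = 0.103), and without the 3 arrays that stand apart by -1.42 ± 0.39 (0.0114).

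The licensing and fork genes moved in both directions. Mcm7, a subunit of the helicase that opens replication origins, ran from 833 to 1764 in saline (median 1361) and from 667 to 1282 in OVA (median 851). Mcm7 fell by 0.58 ± 0.12 with OVA (limma, adjusted p = 0.000509). Within the DE 500 saline group the Mcm7 readings were 1731, 959, 833 and 1524, and the lower pair lay inside the range of the OVA arrays. That lower pair is replicates 2 and 3, whose 3′/5′ ratios lay near those of the OVA arrays. DE 2000 OVA replicate 4 read 1282, against 740 to 950 in the rest of its group. The difference was -0.19 (limma, adjusted p = 0.216) with the 3′/5′ covariate and 0.06 with B1, and -0.49 (0.000232) without the 3 arrays. Other Mcm7 probe sets gave -0.45, which was called, -0.30 and -0.07.

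Pcna, the sliding clamp that holds DNA polymerase on the template, ran from 1263 to 2219 in saline (median 1532) and from 1654 to 3096 in OVA (median 2329). Of the 12 OVA arrays, 9 lay above every saline array. Pcna rose by 0.57 ± 0.11 on the log2 scale with OVA (limma, adjusted p = 0.000285), a 1.48-fold higher signal. By array it read 1393, 1764, 1368 and 1883 in air with saline and 2917, 2213, 2271 and 2333 in air with OVA. At DE 500 it read 1484, 2133, 2219 and 1263 with saline and 2381, 2250, 2519 and 2180 with OVA. At DE 2000 it read 1265, 1747, 1581 and 1375 with saline and 2492, 3096, 2325 and 1654 with OVA. The groups of 4 overlapped at DE 500 and DE 2000 and did not in air. The differences were 0.61 in air (limma, adjusted p = 0.0440), 0.43 at DE 500 (0.150) and 0.66 at DE 2000 (0.0222). Pcna mirrored the 3′/5′ ratio within both uneven groups: the DE 500 saline arrays with low ratios read 2133 and 2219, and DE 2000 OVA replicate 4 read lowest of all OVA arrays. With the 3′/5′ covariate the averaged difference was 0.24 ± 0.09 (limma, adjusted p = 0.122) and that at DE 2000 was 0.43 ± 0.13 (0.0316), with B1 0.01, and without the 3 arrays 0.51 (6.22e-05). The call in air was lost on leaving out any of 12 arrays, with differences of 0.52 to 0.65, and that at DE 2000 without DE 2000 OVA replicates 1 or 2 or DE 2000 saline replicates 1 or 4, with 0.52 to 0.63. Pcna has 1 probe set.

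Of the other licensing genes, Mcm2, a further helicase subunit, ran from 147 to 575 in saline (median 336) and from 101 to 382 in OVA (median 238). Its arms overlapped over most of their range, and the difference of -0.49 ± 0.21 was not called (limma, adjusted p = 0.0847). The second Mcm2 probe set was called in the opposite direction, at 0.42. Mcm3, Mcm4, Mcm5 and Mcm6, the remaining helicase subunits, differed by -0.17 ± 0.12, 0.20 ± 0.10, -0.04 ± 0.14 and -0.69 ± 0.48. Cdc6, which loads the helicase, differed by 0.66 ± 0.51, with a within-group SD of 1.33 near background. Another Mcm3 probe set was called at -1.77. The helicase subunits act as one ring, and of the 6 measured here Mcm7 alone was called.

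None of the 4 nucleotide enzymes was called. Rrm1, the large subunit of ribonucleotide reductase, ran from 266 to 436 in saline (median 373) and from 237 to 512 in OVA (median 372). The medians differ by 1 signal unit, and the difference was -0.01 ± 0.11. A second Rrm1 probe set was called at 0.86. Rrm2, the small subunit, differed by 0.11 ± 0.13. Tyms, which makes thymidylate, and Tk1, which salvages thymidine, lay near background and differed by 0.16 ± 0.51 and 0.10 ± 0.38.

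**Figure D2:**
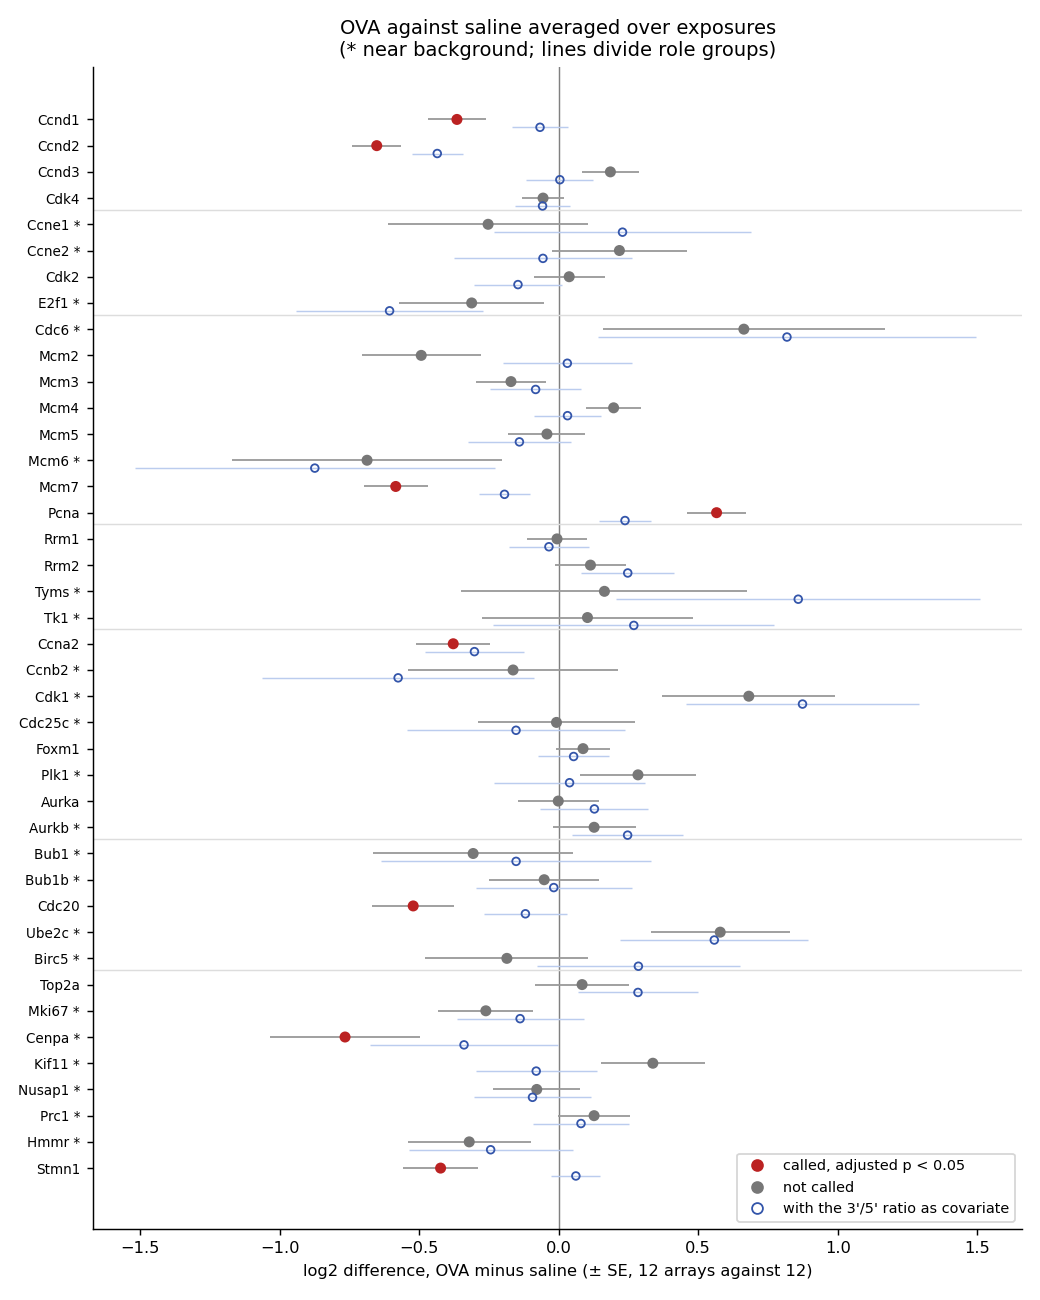
Log2 difference of OVA minus saline averaged over exposures (horizontal axis, ± SE, 12 arrays against 12) for the 41 members (vertical axis, by role; asterisks mark the 22 near background). Filled points are the fit without a covariate, red where called, and open points add the 3′/5′ ratio; the red points move towards 0 or just past it, and only Ccnd2 is still called.

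Among mitotic cyclins and kinases 1 of 8 was called. Ccna2, cyclin A2, needed for S phase and entry into mitosis, ran from 193 to 298 in saline (median 210) and from 121 to 257 in OVA (median 171). Of the 12 OVA arrays, 7 lay below every saline array. Ccna2 fell by 0.38 ± 0.13 with OVA (limma, adjusted p = 0.0336). Its second probe set, near background, differed by 0.40 in the opposite direction and was not called, and the mean of both gave 0.01. The call was lost without any 1 of air OVA replicates 3 and 4, air saline replicate 3, DE 2000 OVA replicate 3, DE 2000 saline replicate 1, DE 500 OVA replicates 2 and 4 and DE 500 saline replicate 4, with differences of -0.36 to -0.33. Without the 3 arrays that stand apart it was -0.34 (limma, adjusted p = 0.107), and with the 3′/5′ covariate -0.30 (0.365).

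Foxm1, the transcription factor of mitotic genes, has the highest signal of this group and did not differ beyond its spread. Its readings ran from 229 to 375 in saline (median 295) and from 240 to 363 in OVA (median 313), with a difference of 0.09 ± 0.10. Cdk1, the kinase of mitosis, lay near background. It ran from 21.5 to 73.5 in saline (median 30.1) and from 29.9 to 151 in OVA (median 35.6). Above every saline array lay 5 OVA arrays, at least 1 at each exposure, and the other 7 did not. The difference was 0.68 ± 0.31 and was not called (limma, adjusted p = 0.102). Aurka, a spindle pole kinase, differed by 0.00 ± 0.15. Plk1, Aurkb, Ccnb2 and Cdc25c, a pair of mitotic kinases, a B-type cyclin and the phosphatase that activates Cdk1, are all near background. They differed by 0.28 ± 0.21, 0.13 ± 0.15, -0.16 ± 0.38 and -0.01 ± 0.28.

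Among the spindle checkpoint and anaphase genes 1 of 5 was called. Cdc20, which activates the anaphase-promoting complex, ran from 168 to 407 in saline (median 301) and from 142 to 314 in OVA (median 179). Cdc20 fell by 0.52 ± 0.15 with OVA (limma, adjusted p = 0.00862). By group, the saline arrays read 296, 307, 365 and 193 in air, 407, 168, 173 and 269 at DE 500, and 309, 232, 325 and 376 at DE 2000. The OVA arrays read 200, 164, 142 and 158 in air, 174, 169, 195 and 150 at DE 500, and 184, 278, 231 and 314 at DE 2000. At DE 2000 the OVA readings of 184 and 231 lie below every saline reading of that exposure, and those of 278 and 314 lie among them. At DE 500 the saline readings of 168 and 173 lie among the OVA readings of that exposure. The difference was -0.12 (limma, adjusted p = 0.742) with the 3′/5′ covariate, 0.12 with B1, and -0.40 (0.0250) without the 3 arrays. A second Cdc20 probe set differed by -0.39 and the other by 0.04, and neither was called. Ube2c, the ubiquitin-conjugating enzyme of the same complex, differed by 0.58 ± 0.25 near background and was not called (limma, adjusted p = 0.0820). Bub1 and Bub1b, checkpoint kinases, and Birc5, survivin, differed by -0.31 ± 0.36, -0.05 ± 0.20 and -0.19 ± 0.29.

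Among the chromosome and spindle proteins 2 of 8 were called. Stmn1, stathmin, which destabilises microtubules, ran from 3195 to 7175 in saline (median 5012) and from 2880 to 7270 in OVA (median 3604). Stmn1 fell by 0.42 ± 0.13 with OVA (limma, adjusted p = 0.0185). The DE 500 saline arrays read 7175, 3195, 3484 and 6354, and the DE 2000 OVA arrays 3961, 3889, 3029 and 7270. The high readings in both groups were those of the 3 arrays with the high 3′/5′ ratios of 4.38, 3.77 and 2.02. The difference was 0.06 ± 0.09 (limma, adjusted p = 0.782) with the 3′/5′ covariate, 0.43 ± 0.13 (0.0945) with B1 and 0.24 (0.579) with both, and -0.34 (0.00195) without the 3 arrays. The sign of the Stmn1 difference thus turned with each covariate.

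**Figure D3:**
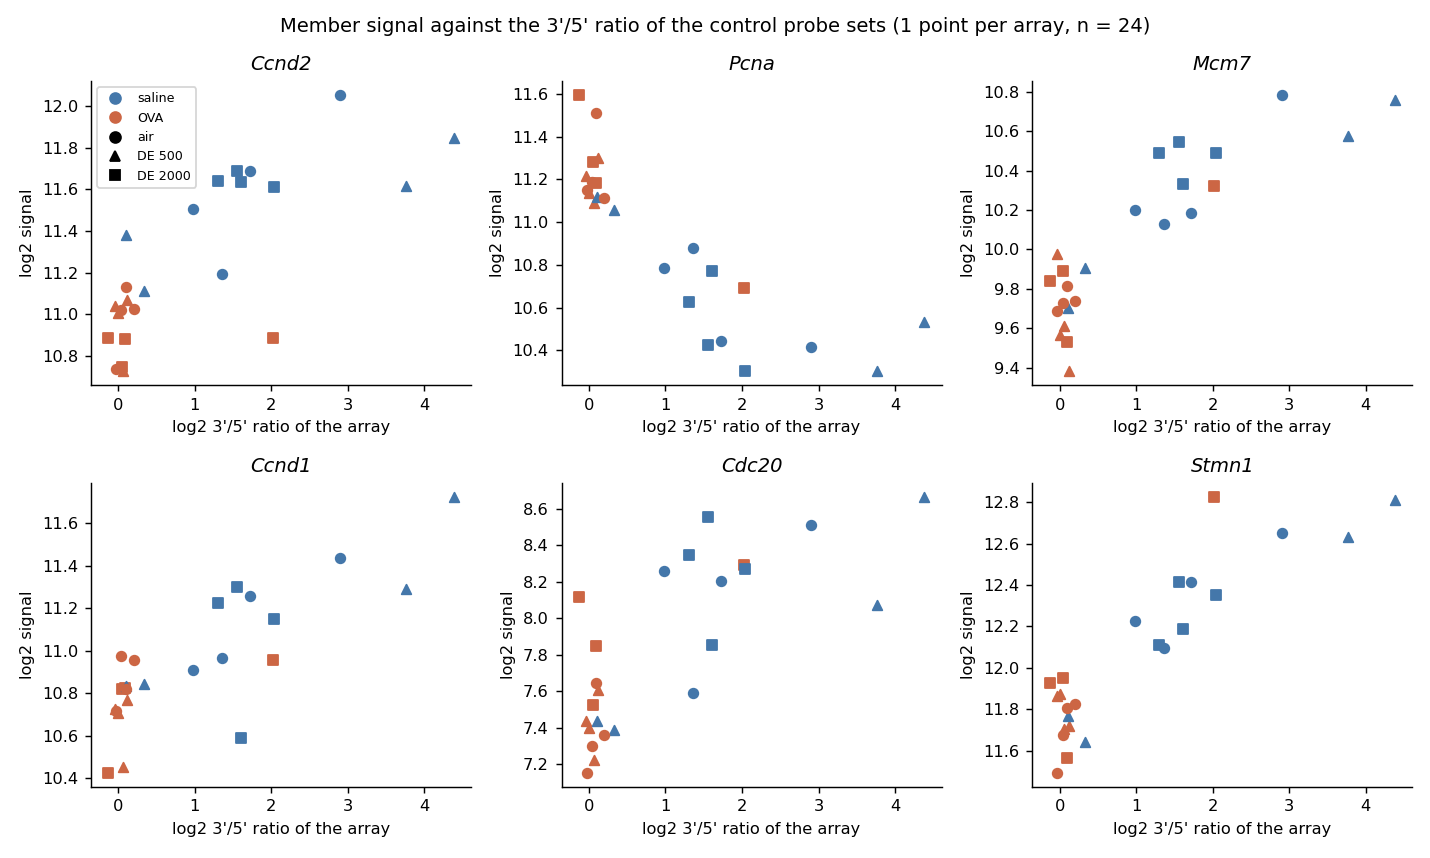
Log2 signal (vertical axis) of 6 called members against the array's 3′/5′ ratio on the log2 scale (horizontal axis); each point is 1 of 24 arrays, coloured by saline or OVA and shaped by exposure. The 2 DE 500 saline arrays near ratio 0 lie with the OVA arrays for Mcm7, Pcna, Cdc20 and Stmn1, and the OVA array at 2.02 lies with the saline arrays for these genes but not for Ccnd2. For Ccnd1 the same 2 saline arrays also lie within the range of the OVA arrays. For Ccnd2 these 2 saline arrays read below the other DE 500 saline arrays.

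Cenpa, the histone variant that marks centromeres, was the only called member near background. It ran from 57.2 to 202 in saline (median 96.7) and from 19.1 to 105 in OVA (median 74.0). Cenpa fell by 0.77 ± 0.27 with OVA (limma, adjusted p = 0.0327). The difference was -1.38 in air, -0.89 at DE 500 and -0.03 at DE 2000, none of them called. The averaged call was lost without any 1 of air OVA replicates 3 and 4, air saline replicates 1 and 3, DE 2000 OVA replicate 1, DE 2000 saline replicates 1 and 3, DE 500 OVA replicate 4 and DE 500 saline replicate 1, with differences of -0.74 to -0.59. The difference was -0.34 ± 0.34 (limma, adjusted p = 0.655) with the 3′/5′ covariate, -0.19 ± 0.49 (0.921) with B1 and -0.73 ± 0.60 (0.708) with both, and -0.65 (0.108) without the 3 arrays.

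Mki67, the antigen most used to count dividing cells, did not differ beyond its spread. It ran from 79.9 to 145 in saline (median 113) and from 48.8 to 134 in OVA (median 100.5). The difference was -0.26 ± 0.17 (limma, adjusted p = 0.270). Top2a, the topoisomerase that untangles chromosomes, ran from 70.0 to 251 in saline (median 152) and from 104 to 194 in OVA (median 163). The OVA values lay wholly inside the saline range, and the difference was 0.08 ± 0.17. Kif11, a spindle motor, Nusap1 and Prc1, which bundle microtubules, and Hmmr, a spindle-associated protein, differed by 0.34 ± 0.19, -0.08 ± 0.16, 0.13 ± 0.13 and -0.32 ± 0.22 and were not called. Second probe sets of Prc1 and Hmmr were called at 0.86 and 1.01.

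Probe sets of a gene often disagreed. Of the 23 members with several probe sets, 10 had all of them on the same side of 0 in the averaged OVA comparison and 13 did not. Of all 84 probe sets 23 were called, 16 lower and 7 higher in OVA. Of all 22626 probe sets of the array 31.1% were called, 15.9% higher and 15.2% lower. Among the 16 lower ones are 5 further probe sets of Ccnd2, besides the one that represents it, so the 16 do not count separate genes. Members for which a called probe set stood against another in sign were Ccnd1, Ccnd2, Cdc20, Ccna2, Cdk4, Mcm2, Mcm3, Rrm1 and Hmmr.

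Diesel exhaust was compared with filtered air at each concentration and in each arm. No member was called in any of the 4 comparisons. The share of all probe sets called was 0.00442% for DE 500 and 0.0796% for DE 2000 in saline, and 0.0% for DE 500 and 0.00884% for DE 2000 in OVA. Members with an unadjusted p under 0.05 in limma numbered 1 for DE 500 in saline, 1 for DE 2000 in saline, 0 for DE 500 in OVA and 4 for DE 2000 in OVA, where 7.32%, 6.13%, 1.64% and 7.11% of all probe sets had one. The member medians were -0.02, 0.03, -0.05 and 0.01 in the same order, against -0.01, 0.00, 0.00 and -0.05 over all probe sets. The comparisons within an arm share their air arrays. With a median SE of 0.22 above the background limit and 0.46 near it, small differences were not detectable with 4 arrays a group.

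In saline, the smallest p at DE 500 belonged to Ccne1, near background. It read 123, 54.0, 59.0 and 128 in air with saline and 65.4, 20.9, 11.5 and 49.1 at DE 500 with saline. The readings overlap, and the difference was -1.51 ± 0.62 (limma, adjusted p = 0.581). Next came Ccnd3 at -0.35, Cdk4 at -0.24 and Cdk1 at -0.92. At DE 2000 in saline it was Mcm3, which read 299.9, 302, 264 and 285 in air and 154, 211, 244 and 248 at DE 2000. All 4 exhaust readings lay below the air readings, and the difference was -0.45 ± 0.22 (limma, adjusted p = 0.800). Ccne1 at -1.25, Cdk4 at -0.24 and Ube2c at 0.69 followed.

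With OVA, the smallest p at DE 2000 belonged to E2f1, near background, which read 62.7, 175, 181 and 119 in air and 24.2, 68.2, 41.2 and 83.8 at DE 2000. The difference was -1.34 ± 0.45 (limma, adjusted p = 0.612). Cdk4 read 785, 705, 582 and 668 in air with OVA and 769, 836, 871 and 908 at DE 2000 with OVA, a difference of 0.31 ± 0.13. Rrm1 read 322, 444, 309 and 250 in air with OVA and 424, 441, 512 and 392 at DE 2000, a difference of 0.44 ± 0.19. Cdc20 differed by 0.58 ± 0.25. Each of these 4 genes had an adjusted p of at least 0.612 in limma, and the groups overlapped for E2f1, Cdk4, Rrm1 and Cdc20. At DE 500 with OVA the leading members were Ube2c at -0.57, Ccnb2 at 0.85, Ccnd1 at -0.20 and Bub1b at 0.37.

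**Figure D4:**
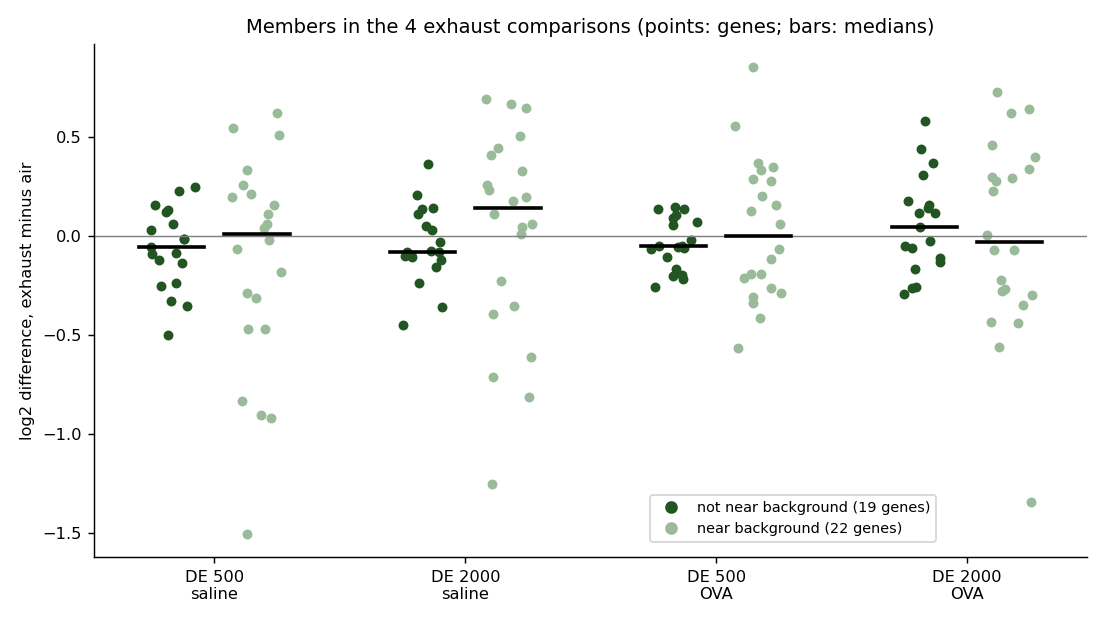
Log2 difference of exhaust minus air (vertical axis) for the 41 members in the 4 exhaust comparisons (horizontal axis); points are genes, dark for the 19 above the background limit and pale for the 22 near it, and bars are medians. No point was called, and the pale points spread wider than the dark ones in each comparison.

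For Mki67 and Top2a, commonly read proliferation markers, no response to exhaust was detectable. Mki67 read 79.9, 120, 127 and 100.0 in air with saline, 144, 106, 102 and 87.0 at DE 500 and 137, 145, 138 and 90.7 at DE 2000. With OVA it read 99.7, 113, 101 and 48.8 in air, 88.9, 99.9, 64.9 and 115 at DE 500, and 125, 108, 69.7 and 134 at DE 2000. Every exhaust group overlapped its air group. Top2a read 178, 188, 70.0 and 116 in air with saline, 251, 122, 106 and 156 at DE 500 and 183, 135, 147 and 205 at DE 2000. With OVA Top2a read 194, 169, 138 and 159 in air, 136, 104, 184 and 134 at DE 500, and 176, 146, 166 and 193 at DE 2000. These exhaust groups overlapped their air groups as well.

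Averaged over saline and OVA, DE 2000 against air called no member and 0.0663% of all probe sets. Rrm1 (0.29 ± 0.13) and E2f1 (-0.67 ± 0.32) had an unadjusted p under 0.05 in limma, where 6.89% of all probe sets had one. Cdc20 at 0.35 and Ube2c at 0.55 followed. The interaction, which asks whether the DE 2000 difference in OVA departs from that in saline, called 0 members and 0.0% of all probe sets. Cdk4 (0.55 ± 0.18) and E2f1 (-1.35 ± 0.64) had an unadjusted p under 0.05 in limma, against 6.06% of all probe sets, and Cenpa at 1.35 and Mcm3 at 0.59 followed. The Cdk4 difference at DE 2000 was -0.24 in saline and 0.31 in OVA, and the interaction was not called (limma, adjusted p = 0.599).

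Stmn1 was called for exhaust under 2 alternatives only. Without the 3 arrays that stand apart it was lower at DE 500 than in air with saline (-0.64 ± 0.15, limma, adjusted p = 0.0177), in a fit that called 4.57% of all probe sets. That comparison then rests on DE 500 saline replicates 2 and 3, which have 3′/5′ ratios of 0.33 and 0.10 against 0.98 to 2.90 in air with saline. With the B1 covariate Stmn1 was higher at DE 2000 than in air with OVA (0.58 ± 0.12, limma, adjusted p = 0.0194), where 3.23% of all probe sets were called.

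A second list of cell cycle genes, from outside the members, holds 78 genes, of which 69 are on the array and 35 lie near background. In the averaged OVA comparison 11 of the 69 (15.9%) were called, 5 higher and 6 lower, beside the 31.1% of all probe sets. Dnmt1, which copies DNA methylation after replication, was lower by -0.39 ± 0.07, and Rpa2, a subunit of the single-strand binding protein, by -0.73 ± 0.15. Cks2, a subunit bound to mitotic kinases, was higher by 0.58 ± 0.13, and Ezh2, a histone methyltransferase, lower by -0.47 ± 0.11 (limma, adjusted p = 0.00185 or less for all 4). With the 3′/5′ covariate 3 of the 69 were called, Dnmt1, Cks1b and Cks2, beside 8.3% of all probe sets. With the B1 covariate 0 were called, beside 1.98%. The list's median was -0.02. At single exposures OVA against saline called 3 of the 69 in air, 1 at DE 500 and 1 at DE 2000. The shares of all probe sets called there were 7.29%, 5.58% and 10.7%. In the 4 exhaust comparisons 0 of the 69 were called, with 4, 5, 0 and 3 at an unadjusted p under 0.05 in limma for DE 500 and DE 2000 in saline and then in OVA. With the B1 covariate H2az1 and Ncaph, a histone variant and a condensin subunit, were called higher at DE 2000 than in air with OVA, beside 3.23% of all probe sets.

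Of 17 inhibitors of the cycle on the array 4 (23.5%) were called in the averaged OVA comparison, beside the 31.1% of all probe sets. Cdkn2c, an inhibitor of Cdk4 and Cdk6, rose by 0.58 ± 0.10 (limma, adjusted p = 0.000104). Rbl2, a relative of the retinoblastoma protein, rose by 0.78 ± 0.22 and Ccng2, an atypical cyclin, by 0.21 ± 0.07. Gadd45b, a stress-induced gene, fell by 0.19 ± 0.07. With the 3′/5′ covariate Cdkn2c alone of them stayed called on average (8.3% of all probe sets), and with the B1 covariate 0 did (1.98%). At single exposures, 0 of the 17 were called between OVA and saline in air (7.29% of all probe sets) and 0 at DE 500 (5.58%). At DE 2000 4 of the 17 were called, beside 10.7% of all probe sets. Cdkn2c (0.81) and Ccng2 (0.46) were higher, and Gadd45b (-0.41) and Cdkn1b, the inhibitor p27 (-0.57), were lower. The same 4 were called there with the 3′/5′ covariate (9.13% of all probe sets), and with B1 the only call was Cdkn2d, lower (4.79%). With both covariates 0 were called there (0.0133%). In the exhaust comparisons 0 inhibitors were called, with 2, 2, 0 and 2 at an unadjusted p under 0.05 in limma in the order given for the second list. Without the 3 arrays Gadd45g and Cdkn2d were called at DE 500 with saline, 1 higher and 1 lower, beside 4.57% of all probe sets, in a comparison that then rests on 2 DE 500 saline arrays.

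Markers of cells that often divide or enter inflamed lung were read beside these results, and their part in them was not tested. Marker calls for OVA are those of the averaged comparison without a covariate, which called 31.1% of all probe sets. Of 7 T cell markers, 3 near background, 0 were called for OVA, and their summed signal ran from 931 to 1670 in saline and 866 to 1602 in OVA. Of 5 B cell markers 0 were called, with sums of 2418 to 8532 in saline and 2102 to 3661 in OVA. Of 8 neutrophil markers, 2 near background, 1 was called lower for OVA on average (S100a9, -0.65). Their sums differed by exposure: 4072 to 6279 in air, 3352 to 6422 at DE 500 and 6937 to 12549 at DE 2000 with saline, against 4390 to 6343, 3318 to 5807 and 4806 to 6195 with OVA. Every DE 2000 saline sum thus lay above every other group's sums. For DE 2000 against air in saline 0 of the 8 were called, beside 0.0796% of all probe sets. All 8 were above 0 with a median of 0.71. An unadjusted p under 0.05 in limma was found for 5 of them, against 6.13% of all probe sets. Between OVA and saline their median was 0.09 in air and -0.30 at DE 2000. Of 6 macrophage markers 2 were called higher, Cd68 and Adgre1, with sums of 4462 to 6674 in saline and 4828 to 7920 in OVA. All 5 thymus markers lay near background, with sums of 174 to 529 in saline and 200 to 397 in OVA. Of 5 endothelial markers 3 were called higher and 1 lower, with sums of 15663 to 21031 in saline and 17160 to 21237 in OVA.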

How the data were processed

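Lung RNA was measured on 24 arrays, 6 groups of 4 assigned from the labels. Per the labels' protocols, frozen tissue was extracted with RNeasy and biotinylated cRNA was hybridised. The deposited intensity values were computed by the authors with MAS5, per the submitters' processing notes. Neither the MAS5 version nor the scaling is given in the sources used here, and the arrays show a common trimmed mean of 500.1 to 500.2, and array medians of 182 to 243.

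Control probe sets (64 of 22690) were left out and 22626 kept, of which 20380 name 1 gene, 691 several and 1555 none in the platform annotation. Signals were taken to log2 with no pseudocount or filter. A linear model of the 6 group means over the 24 arrays was tested in R 4.3.3 by limma 3.58.1 (eBayes with trend), two-sided, with Benjamini-Hochberg adjustment over all 22626 probe sets in each of 10 comparisons. A call is an adjusted p under 0.05. The fit was tested on simulated data with independent noise and no 3′/5′ or B1 difference between the arms. That test therefore does not bear on the difference in these controls between OVA and saline. Differences are OVA minus saline, or exhaust minus air. Tables and figures used Python 3.11.15, pandas 2.3.3 and matplotlib 3.10.9.

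The members, the second list, the inhibitors, the cell type markers and the tests were chosen with earlier results of these data known. Members called, the brightest of each role group and Mki67, Top2a, Pcna, Ccnd1, Cdk1 and Mcm2 are given in full. In comparisons without calls, the 4 members with the smallest p are named. Of the second list and the inhibitors, up to 4 are named per comparison, and beyond that rule genes called under an alternative or at 1 exposure, chosen after their values were seen. No 2 arrays were identical. Residuals of arrays with the same replicate number in different groups correlated at 0.01 on average (-0.20 to 0.32 over 60 pairs), so the numbers were not used as pairs. The alternatives were 13 other settings, among them the 3′/5′ ratio and B1 as covariates, and leaving out each of the 24 arrays.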

Additional observations from a re-analysis of the deposited data

Results flagged for a closer look

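Each of the 15 members given in full was checked in each of the 6 groups for an array set far from the other 3, by the gap to the nearest array over the group's range. Of 90 such checks 8 passed Dixon's 95% critical value, where chance gives about 1 in 20, or 4.5. Values are log2 signals. Ccnd2 at DE 2000 with OVA was 10.74 in replicate 1, against 10.88 to 10.89 in the others. Mcm7 in air with saline was 10.78 in replicate 3, against 10.13 to 10.20. Replicate 3 also has the highest 3′/5′ ratio of its group, 2.90.

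Cdk1, near background, was 5.33 in replicate 2 at DE 2000 with saline, against 4.89 to 4.91, and 6.90 in replicate 1 in air with OVA, against 4.90 to 5.12. Cdk2 was 8.34 in replicate 1 at DE 2000 with OVA, against 7.80 to 7.88, and 7.23 in replicate 4 at DE 2000 with saline, against 8.14 to 8.32. Mki67, near background, was 6.503 in replicate 4 at DE 2000 with saline, against 7.10 to 7.18, and 5.61 in replicate 4 in air with OVA, against 6.64 to 6.82. Cdk1, Cdk2 and Mki67 were not called in any comparison of the fit reported. The cause of these readings was not tested.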

How the results depend on the processing

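Of 370 recomputed counts of called members 303 stayed within 1.5 times the reported count, and of 350 recomputed medians 335 moved by less than 1 SD of the array medians. The 370 include the exhaust comparisons and the interaction, where no member was called as reported and nearly every recount found none. The 67 counts that moved were those of the OVA comparisons, apart from the exhaust recounts named below, so the OVA counts are less stable than the pooled figure. Of 481 other recomputed results, 94 were differences of called genes that kept the direction and lost the call, and 8 were differences that reversed. The other 379 were differences that kept direction and call, apart from the count of members near background under the second limit. That count stayed within 1.5 times the reported one. The reversals for OVA on average were Ccnd1 (0.072), Mcm7 (0.065), Cdc20 (0.12) and Stmn1 (0.43) with the B1 covariate, Stmn1 with the 3′/5′ covariate (0.062) and with both (0.24), and Ccna2 with the mean of a gene's probe sets (0.012). Pcna at DE 2000 reversed with the B1 covariate (-0.029). The cause was not tested.

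The averaged OVA comparison called 1 member with the 3′/5′ covariate, 0 with B1 and 0 with both, and its median was 0.065 with B1 and 0.12 with both. In air it called 2 as reported, 6 with only the groups compared, with array weights or without the 3 arrays that stand apart, 1 with median scaling, no trend or the mean of probe sets, and 0 with the 3′/5′ covariate, B1 or both. At DE 500 it called 1 as reported, 2 with the mean of probe sets, and 0 with median scaling, array weights, no trend, a fit of only those groups, either covariate, both, or without the 3 arrays. At DE 2000 it called 2 as reported, 5 with array weights, the mean of probe sets or without the 3 arrays, 1 with only the groups compared or B1, and 0 with both covariates. DE 500 against air in saline called 1 without the 3 arrays, and DE 2000 against air in OVA 1 with B1.

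Medians moved in air to -0.15 (quantile normalization), -0.13 (median scaling) and 0.15 (both covariates) for OVA. They moved at DE 500 to -0.18 (quantile), 0.11 (mean of probe sets) and 0.067 (both), and at DE 2000 to -0.12 (mean of probe sets). DE 2000 against air moved to -0.081 in saline with a filter at the 40th percentile, and to 0.14 (quantile) and 0.11 (median scaling) in OVA. The interaction moved to 0.14 with median scaling. Median scaling shifted the median of all probe sets by 0.11 for DE 2000 in OVA, -0.12 for OVA in air and 0.13 for the interaction. It put 43.6% of the calls for OVA in air higher, against 54.7% as deposited.

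Leaving out 1 array at a time, the members called ran from 6 to 10 for OVA on average, 0 to 5 in air, 0 to 5 at DE 500 and 1 to 4 at DE 2000, and stayed at 0 in each exhaust comparison and the interaction. The medians ran from -0.06 to -0.01, -0.09 to 0.05, -0.09 to 0.02 and -0.08 to 0.01 for OVA in that order, from -0.07 to 0.01 and -0.02 to 0.07 for DE 500 and DE 2000 in saline, from -0.08 to 0.01 and -0.05 to 0.08 in OVA, from -0.03 to 0.06 for DE 2000 on average and from -0.12 to 0.058 for the interaction. With the replicate number as a block, the OVA comparison called 8 on average, 2 in air, 1 at DE 500 and 2 at DE 2000, and 0 members were called for exhaust, so that the block changed no count. Cenpa has no value under the filter, which removes it. Near background, a median SE of 0.46 limits what 4 arrays against 4 can show.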
